A study of Mus musculus with 8 samples.

Results

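The 30 genes described here encode the enzymes of hepatic cholesterol synthesis and the proteins that control them, and they were taken as a named list of the pathway, by membership and with no threshold on a measured value, although earlier results of these data were known when the list was drawn up. All 30 were measured, among 42982 features (genes, or probes without a gene symbol) tested on the arrays. They comprise 19 enzymes of the pathway (8 early mevalonate enzymes, and 11 enzymes of squalene and sterol synthesis), 7 members of the SREBP machinery, and 4 other sterol-linked genes. Liver RNA came from male congenic mice of the strain NZO/HiBomDifexC57BL/6J in a pair of groups, of which 4 arrays (NN 1, NN 4, NN 6 and NN 7) carry the genotype Ltg/NZO.5.3N/N and 4 (NB 2, NB 3, NB 5 and NB 8) the genotype Ltg/NZO.5.3N/B. Both groups had received a diet with 45% fat, and the labels give 5 weeks both as the age of the mice and as the end of feeding. No group on another diet was analysed here, so every value refers to livers on the high-fat diet. Whether every array came from an animal of its own is not given in the labels, and p-values therefore rest on the spread among the 8 samples.

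Cholesterol is built from acetyl-CoA through mevalonate, farnesyl diphosphate, squalene and lanosterol, and most enzymes of this route are induced together by the transcription factor SREBP-2, the product of Srebf2. When membranes of the endoplasmic reticulum hold little sterol, Scap carries the SREBP precursors to the Golgi apparatus, where the proteases encoded by Mbtps1 and Mbtps2 release the active factor; when sterol is plentiful, Insig proteins hold the complex back. Insig1 is itself a target of SREBP, whereas a liver transcript of Insig2 is known to be lowered by insulin, and Srebf1 encodes the related factor that drives fatty acid synthesis.

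Array intensities were expressed as log2 signal relative to the 75th percentile of the same array, so that 0 is the signal at that percentile and a difference of 1 is a 2-fold difference. The 75th percentile itself lay between 445.0 and 584.4 intensity units, 74.4 to 79.6% of probes were well above background, and no spot was saturated. The liver label was matched by 8 of 8 hepatocyte markers measured; their summed level, on a linear scale on which the 75th percentile is 1, was 2030 to 2350 in NN and 2020 to 2330 in NB. All arrays lay on 1 slide with 1 scan date, and each of its 4 columns held 1 array of each genotype.

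The enzymes of the pathway differed strongly between livers of the same genotype, and did so together. For 20 of the 30 genes the 3 lowest arrays were NN 1, NN 4 and NB 2, a combination noticed after the values had been seen, against 7.79% of the 42512 features with a value on all arrays. These 20 were 15 of the 19 enzymes (all but Acat2, Ggps1, Tm7sf2 and Ebp) together with Srebf2, Insig1, Stard4, Tmem97 and Rdh11. The highest array was NN 6 in 14 of them and NB 8 in the other 6. Insig2 was the 1 gene of the list in which the same 3 arrays were the highest, as they were in 6.75% of all features. Of the remaining 9, Acat2, Ggps1, Tm7sf2, Ebp, Srebf1, Scap, Mbtps1, Mbtps2 and Aacs, none had these arrays at either end. With each scaling of the arrays that was tried, 20 or 21 of the 30 genes had NN 1, NN 4 and NB 2 as their lowest arrays.

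**Figure D1:**
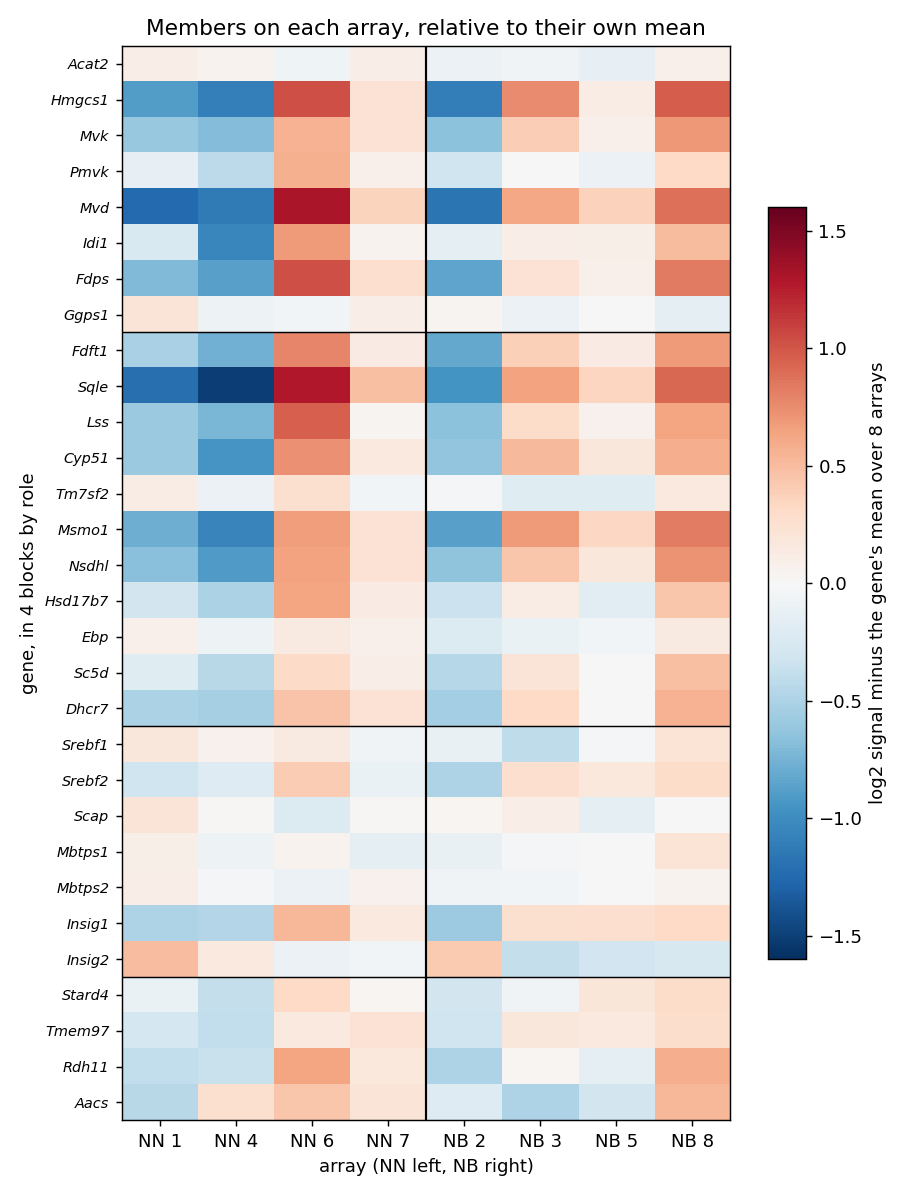
Log2 signal of each of the 30 genes (rows, in blocks of early mevalonate enzymes, squalene and sterol enzymes, SREBP machinery and other sterol-linked genes) on each array (columns, NN left and NB right), minus the gene's mean over the 8 arrays. Columns NN 1, NN 4 and NB 2 are blue in most enzyme rows and NN 6 and NB 8 are red, while the row of Insig2 shows NN 1 and NB 2 in red.

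Other properties of the arrays moved with this order. The 75th percentile was highest on NB 2 (584.4), NN 1 (537.9) and NN 4 (515.7), with NB 3 next at 513.5 and NN 6 lowest at 445.0. Probes well above background were also most frequent on NB 2 (79.6%), NN 1 (79.2%) and NN 4 (78.1%). On the other 5 arrays that share was 74.4% (NN 7) to 77.2% (NB 3). The first principal component of all features, which held 28.5% of their variance, had the scores -0.44 on NB 2, -0.40 on NN 1 and -0.28 on NN 4, against -0.15 on NB 3 and 0.17 to 0.64 on the other 4 arrays. Hepatocyte markers summed to 2020 to 2050 on the 3 arrays and to 2120 to 2350 on the other 5. Only 2 of the 8 markers (Apoa1 and Hpx) had these 3 arrays lowest, and Hpd was highest on NN 4 and NN 1. For markers of Kupffer cells, the resident macrophages of the liver, the sums were 29.1 to 31.0 on the 3 arrays and 37.4 to 43.6 on the other 5, and 4 of the 6 markers (Clec4f, Adgre1, Cd5l and Marco) had the same 3 arrays lowest. Summed markers of endothelial cells (40.7 to 47.2), stellate cells (36.5 to 48.9), cholangiocytes (1.6 to 1.9), lymphocytes (6.60 to 7.96) and adipocytes (0.174 to 0.338, with Adipoq left out as it was well above background on only 3 arrays) did not set these arrays apart. In whole liver, fewer cells of a type and less RNA per cell cannot be told apart, and the part of these properties in the order of the arrays was not tested.

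Because 16 of the 20 genes with this order have an entry among the RefSeq promoters of the GRCm38.p6 assembly, the 250 bases before their start were searched on both strands for the letters TCACNCCAC (a pattern like the sterol regulatory element that SREBPs bind), CCAAT (the box bound by NF-Y, a partner of SREBPs), GGGCGG (the box bound by Sp1) and CACGTG (an E-box). CCAAT was found in 16 of these 16, in 5 of the 10 other genes of the list with an entry, and in 37.5% of all 27025 genes searched the same way. GGGCGG was found in 14 of 16 and 7 of 10, against 35.4% of all genes, and CACGTG in 5 of 16 and 1 of 10, against 6.86%. The longer TCACNCCAC was found in Hmgcs1 alone of the 26 genes with an entry, and in 1.22% of all genes. A match describes letters and is not evidence of binding, and no factor was measured. Fdps, Fdft1, Sqle and Stard4 had no entry. The 5 promoters below were chosen to show the start of the pathway, a late enzyme and both Insig genes: Hmgcs1 (chr13:119690101-119690350, plus strand), Mvk (chr5:114444019-114444268, plus strand), Cyp51 (chr5:4104698-4104947, minus strand), Insig1 (chr5:28071162-28071411, plus strand) and, of the 3 entries of Insig2, the 1 that holds CCAAT (chr1:121332590-121332839, minus strand). They are written 5′ to 3′ along the gene's strand, and capitals mark TCACNCCAC, CCAAT with its reverse complement ATTGG, and CACGTG; no marked matches overlap.
Hmgcs1: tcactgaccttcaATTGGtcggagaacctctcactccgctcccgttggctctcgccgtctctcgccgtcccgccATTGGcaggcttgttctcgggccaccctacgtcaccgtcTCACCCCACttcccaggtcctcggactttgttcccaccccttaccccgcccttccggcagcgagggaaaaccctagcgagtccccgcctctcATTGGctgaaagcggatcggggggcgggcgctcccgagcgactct
Mvk: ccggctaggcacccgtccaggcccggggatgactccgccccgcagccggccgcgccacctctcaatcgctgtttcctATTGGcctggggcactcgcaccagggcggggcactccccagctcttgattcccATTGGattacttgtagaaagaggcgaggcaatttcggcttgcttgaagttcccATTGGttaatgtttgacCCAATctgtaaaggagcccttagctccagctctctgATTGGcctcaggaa
Cyp51: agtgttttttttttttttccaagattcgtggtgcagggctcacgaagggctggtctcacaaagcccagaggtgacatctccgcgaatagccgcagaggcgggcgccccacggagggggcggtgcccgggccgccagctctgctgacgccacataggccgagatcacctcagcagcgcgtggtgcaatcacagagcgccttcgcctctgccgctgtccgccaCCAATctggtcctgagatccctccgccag
Insig1: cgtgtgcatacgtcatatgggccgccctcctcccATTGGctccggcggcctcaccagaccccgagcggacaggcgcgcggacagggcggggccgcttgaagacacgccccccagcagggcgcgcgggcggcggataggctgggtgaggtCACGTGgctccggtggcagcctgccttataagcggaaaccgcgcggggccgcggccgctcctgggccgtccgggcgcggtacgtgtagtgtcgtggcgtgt
Insig2: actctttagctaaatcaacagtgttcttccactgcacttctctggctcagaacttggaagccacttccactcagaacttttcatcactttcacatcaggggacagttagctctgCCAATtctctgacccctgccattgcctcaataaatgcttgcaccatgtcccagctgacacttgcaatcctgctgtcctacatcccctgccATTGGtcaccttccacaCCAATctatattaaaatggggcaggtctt

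In Hmgcs1 the TCACNCCAC match covers the bases 137 to 129 before the start, and 3 ATTGG matches lie around it. The promoter of Mvk holds 4 ATTGG and 1 CCAAT, that of Cyp51 a single CCAAT, and that of Insig1 an ATTGG and the CACGTG. The Insig2 sequence, from the gene in which NN 1, NN 4 and NB 2 were the highest arrays, holds 2 CCAAT and 1 ATTGG.

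Among the early mevalonate enzymes, 6 of 8 had the shared order of arrays, and none passed the test between genotypes. Hmgcs1, which condenses acetoacetyl-CoA with acetyl-CoA to HMG-CoA, had log2 signals of 2.33, 2.13, 4.26 and 3.46 on NN 1, 4, 6 and 7 and of 2.12, 3.98, 3.34 and 4.19 on NB 2, 3, 5 and 8. Both genotypes thus spanned nearly the same range, and within NN alone the highest array was 4.39-fold above the lowest. The mean was 3.04 ± 1.00 (SD, n = 4) in NN and 3.41 ± 0.93 (SD, n = 4) in NB, a difference (NB minus NN) of 0.36 ± 0.57 (SE), with an adjusted p of 1.0 in the limma fit across all features. The 95% interval of the NB over NN ratio, 0.524 to 3.16, lies on both sides of 1.

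Idi1, the isomerase that supplies dimethylallyl diphosphate, had -0.47, -1.26, 0.46 and -0.16 in NN and -0.36, -0.12, -0.13 and 0.28 in NB. NN 4 was lowest and NN 6 highest, and the gap between the 3 lowest arrays and the other 5 was 0.20, against 1.01 in Hmgcs1. The difference was 0.28 ± 0.32 (SE), and without NN 4 it was -0.02. Mvd, the decarboxylase that makes isopentenyl diphosphate, had the widest gap of the list: its 3 lowest arrays lay between -1.18 and -1.06 and its other 5 between 0.42 and 1.37, a gap of 1.48 or 2.79-fold. The gap was 0.79 in Fdps, which makes farnesyl diphosphate, 0.69 in the mevalonate kinase gene Mvk, and 0.05 in Pmvk, which encodes the next kinase. Log2 differences between the genotypes were 0.36 for Mvd, 0.25 for Mvk, 0.15 for Fdps and -0.05 for Pmvk.

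Acat2, the cytosolic thiolase that makes acetoacetyl-CoA, and Ggps1, which diverts farnesyl diphosphate to protein prenylation, stayed in a narrow range. Acat2 had 4.52, 4.48, 4.35 and 4.53 in NN and 4.32, 4.36, 4.29 and 4.50 in NB, so that its highest array was 1.18-fold above its lowest. Its difference of -0.10 ± 0.08 (SE) was the 1 difference of the 30 that exceeded the gene's own SD within genotypes (0.09), and the NB array was below the NN array in each of the 4 slide columns (9.18% of all features had the same direction in all 4 columns); the unadjusted p was 0.229 and the genotypes overlapped. Acat3, a closely related gene, could contribute to the signal, which was not tested. Ggps1 ranged from -1.76 to -1.41 and differed by -0.09 ± 0.09 (SE), and its 4 probes disagreed: the probe of another transcript correlated with the brightest at r = -0.40 over the 8 arrays and gave a difference of 0.05.

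For squalene and sterol synthesis, 9 of 11 enzymes showed the shared order, with gaps from 0.13 (Hsd17b7) to 1.29 (Sqle). Fdft1, squalene synthase, which commits farnesyl diphosphate to sterols, had 4.05, 3.81, 5.36 and 4.71 in NN and 3.76, 4.95, 4.71 and 5.25 in NB. Sqle, the squalene monooxygenase and a rate-controlling enzyme of the route, had 1.1, 0.81, 3.59 and 2.79 in NN and 1.36, 2.96, 2.66 and 3.23 in NB. Its values in NN enclosed all values of NB, and NN 6 was 6.86-fold above NN 4, the widest ratio between arrays in the list. The genotype difference was 0.18 ± 0.40 (SE) for Fdft1 and 0.48 ± 0.65 (SE) for Sqle.

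Lss, which closes squalene epoxide into lanosterol, had 0.20, 0.06, 1.75 and 0.83 in NN and 0.13, 1.09, 0.86 and 1.42 in NB. Cyp51, the cytochrome that demethylates lanosterol, had 2.17, 1.82, 3.5 and 2.93 in NN and 2.14, 3.29, 2.95 and 3.35 in NB. In both genes each genotype contained arrays from the bottom and the top of the range, and the genotype differences were 0.16 ± 0.40 (SE) and 0.33 ± 0.39 (SE). Msmo1 and Nsdhl act in succession to remove the sterol's methyl groups. Msmo1 had 3.74, 3.47, 5.19 and 4.75 in NN and 3.65, 5.20, 4.85 and 5.34 in NB, and Nsdhl had 2.89, 2.65, 4.20 and 3.79 in NN and 2.92, 4.01, 3.74 and 4.28 in NB. Msmo1 had the smallest unadjusted p among the genes with a higher mean in NB (0.337, difference 0.48 ± 0.47, SE), followed by Nsdhl (0.392, difference 0.36 ± 0.40, SE) and Idi1 (0.414); the adjusted p was 1.0 for each. In Msmo1 NB 8, NB 3 and NN 6 were the top 3 arrays, while NB 2 lay between NN 4 and NN 1.

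Other late steps followed with smaller ranges. From lowest to highest array the ratio was 2.21-fold in Hsd17b7, the sterol ketoreductase, 1.92-fold in the desaturase gene Sc5d and 2.14-fold in Dhcr7, whose product makes the last reduction to cholesterol in 1 of the branches. Their genotype differences were 0.02, 0.11 and 0.17. Tm7sf2, a sterol reductase, and Ebp, a sterol isomerase, ranged over only 1.37-fold and 1.30-fold, did not share the order, and differed by -0.12 and -0.11.

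**Figure D2:**
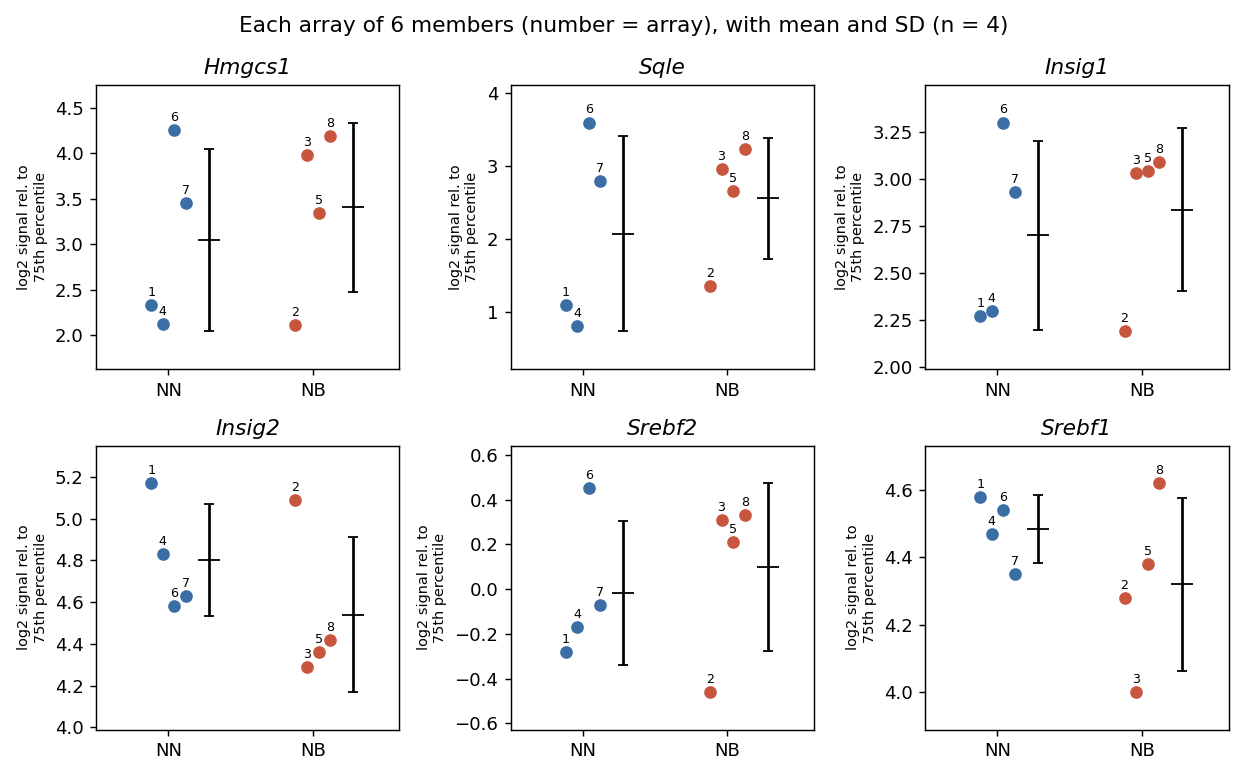
Log2 signal relative to the array's 75th percentile on each array (points, numbered by array) for Hmgcs1, Sqle, Insig1, Insig2, Srebf2 and Srebf1, by genotype, with the mean and SD of 4 arrays beside the points. In Hmgcs1, Sqle and Insig1 arrays 1, 4 and 2 lie apart at the bottom; in Insig2 arrays 1 and 2 lie at the top, and in Srebf1 array 3 is lowest.

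The SREBP machinery did not move as a unit. Srebf2 had -0.28, -0.17, 0.45 and -0.07 in NN and -0.46, 0.31, 0.21 and 0.33 in NB. It shared the order of the enzymes over a 1.88-fold range, with a gap of 0.11 between its low arrays and the rest, and differed by 0.12 ± 0.21 (SE). Srebf1, whose transcripts were not separated here, had 4.58, 4.47, 4.54 and 4.35 in NN and 4.28, 4.00, 4.38 and 4.62 in NB. NB 3 was lowest, although it was among the 3 highest arrays for Srebf2 and Hmgcs1, and the low arrays of the enzymes were spread through the Srebf1 range. The genotype difference of Srebf1 was -0.17 ± 0.13 (SE; unadjusted p 0.236, adjusted p 1.0). Scap, the escort protein, had 4.75, 4.57, 4.33 and 4.56 in NN and 4.58, 4.65, 4.40 and 4.54 in NB, with NN 1 highest and NN 6 lowest. The differences were -0.01 ± 0.10 (SE) for Scap, 0.04 for the protease gene Mbtps1 and -0.03 for Mbtps2; these 3 genes ranged over 1.34-fold, 1.29-fold and 1.15-fold.

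Insig1 and Insig2, whose proteins both retain the Scap complex, had NN 1, NN 4 and NB 2 at opposite ends of their ranges. Insig1 had 2.27, 2.30, 3.30 and 2.93 in NN and 2.19, 3.03, 3.04 and 3.09 in NB, low on the 3 arrays on which the enzymes were low. Insig2 had 5.17, 4.83, 4.58 and 4.63 in NN and 5.09, 4.29, 4.36 and 4.42 in NB, highest on those arrays. The rest of the order was reversed only in part: from NN 6 through NB 8 and NB 5 to NB 3 both genes fell. NN 7 went the other way, lowest of these remaining arrays for Insig1 (2.93) and highest of them for Insig2 (4.63). A further Insig2 probe of the same transcript had the same 3 arrays highest and gave the same difference, -0.26. Insig1 differed between the genotypes by 0.14 ± 0.28 (SE). Insig2 differed by -0.26 ± 0.20 (SE), with the smallest unadjusted p of the 30 genes (0.218; adjusted p 1.0). Within the slide columns the NB array was below the NN array for Insig2 in 4 of 4 (by 0.09, 0.54, 0.22 and 0.21); 9.18% of all features had the same direction in all 4 columns. With the column as a block the unadjusted p was 0.0369 (below 0.05 for 2.86% of all features) and the adjusted p 1.0. NB 2 decided the overlap: without it the NB values (4.29 to 4.42) lay below all NN values (4.58 to 5.17); without NB 2 the genotypes did not overlap in 4.19% of all features. For no other gene of the list did leaving out 1 array separate the genotypes.

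Of the sterol-linked genes outside the route, Stard4, which carries sterol between membranes, had 2.53, 2.25, 2.95 and 2.66 in NN and 2.34, 2.58, 2.82 and 2.92 in NB. Its low arrays were those of the enzymes, but by only 0.06, and the genotypes differed by 0.07 ± 0.17 (SE). Tmem97, a sterol-responsive membrane protein, had the same low arrays with a gap of 0.44, and Rdh11, a retinol dehydrogenase induced by SREBPs, with a gap of 0.21; their differences were 0.15 and -0.02. Aacs, which activates acetoacetate for lipid synthesis, kept another order, with NB 3 lowest (1.16) and NB 8 highest (2.18), and differed by -0.23 ± 0.25 (SE).

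Between NN and NB, no gene of the list was called at an adjusted p below 0.05, where 0.00698% of all features were. None of the 30 reached an unadjusted p below 0.05, where 1.69% of all features did, and none had genotypes without overlap, where 1.16% of all features had. In 29 of the 30 genes the difference was smaller than the SD within genotypes. The mean was higher in NB for 19 of 30 (63.3%; 45.9% of all features) and for 14 of the 19 enzymes, with a median log2 difference of 0.11 over the list, 0.17 over the enzymes and -0.0097 over all features. That count rested on single arrays: without NN 4 it was 12 of 30 with a median of -0.033, and without NB 8 it was 12 of 30 with a median of -0.015. Single arrays also set the size of the differences. The log2 difference of Sqle was 0.060 without NN 4 and 0.986 without NN 6, and that of Hmgcs1 was 0.057 without NN 4 and 0.793 without NB 2. For Mvd it was 0.000 without NN 1 and 0.849 without NN 6, and for Msmo1 0.205 without NN 4 and 0.848 without NB 2. Within the slide columns NB was the higher array for 5 of 30 genes (NB 2 against NN 1), 22 (NB 3 against NN 4), 3 (NB 5 against NN 6) and 25 (NB 8 against NN 7). No gene of the list was higher in NB in all 4 columns.

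**Figure D3:**
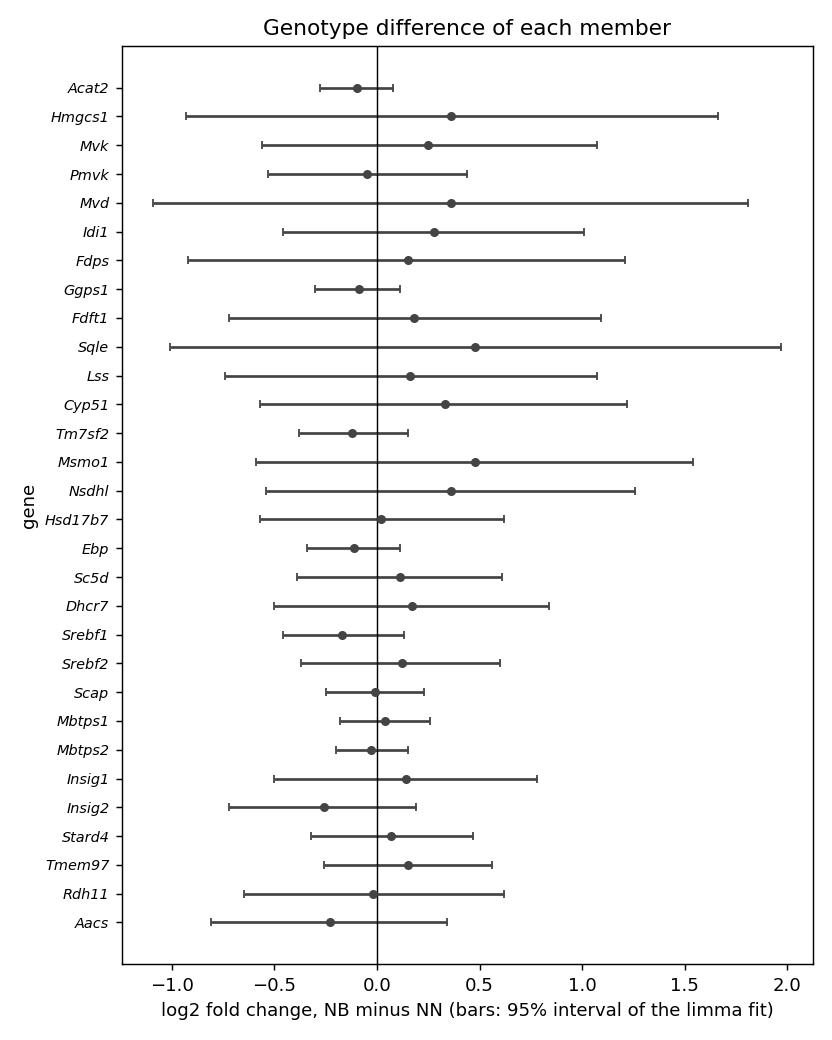
Log2 difference between genotypes (NB minus NN, points) with its 95% interval from the limma fit (bars) for each of the 30 genes. All intervals include 0, and those of Sqle, Mvd and Hmgcs1 are the widest.

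Most enzymes of the pathway varied more within a genotype than most features of the array. The SD within genotypes, pooled over both, had a median of 0.601 over the 19 enzymes and 0.426 over the 30 genes, against 0.172 over all features. Among the enzymes 13 of 19 lay in the top 10% of features by this SD and 12 of 19 in the top 5%; Mvd and Sqle were at percentile 99.8 and Hmgcs1 at 99.6. At the other end, 7 of the 30 lay below the median feature: Mbtps2 at percentile 7.3, Acat2 at 11.3, Ggps1 at 23.4, Mbtps1 at 32.2, Ebp at 33.3, Scap at 38.2 and Tm7sf2 at 48.5. Within the SREBP machinery, Insig1 was at percentile 94.2, Srebf2 at 86.6, Insig2 at 83.8 and Srebf1 at 58.6, above the escort and the proteases.

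**Figure D4:**
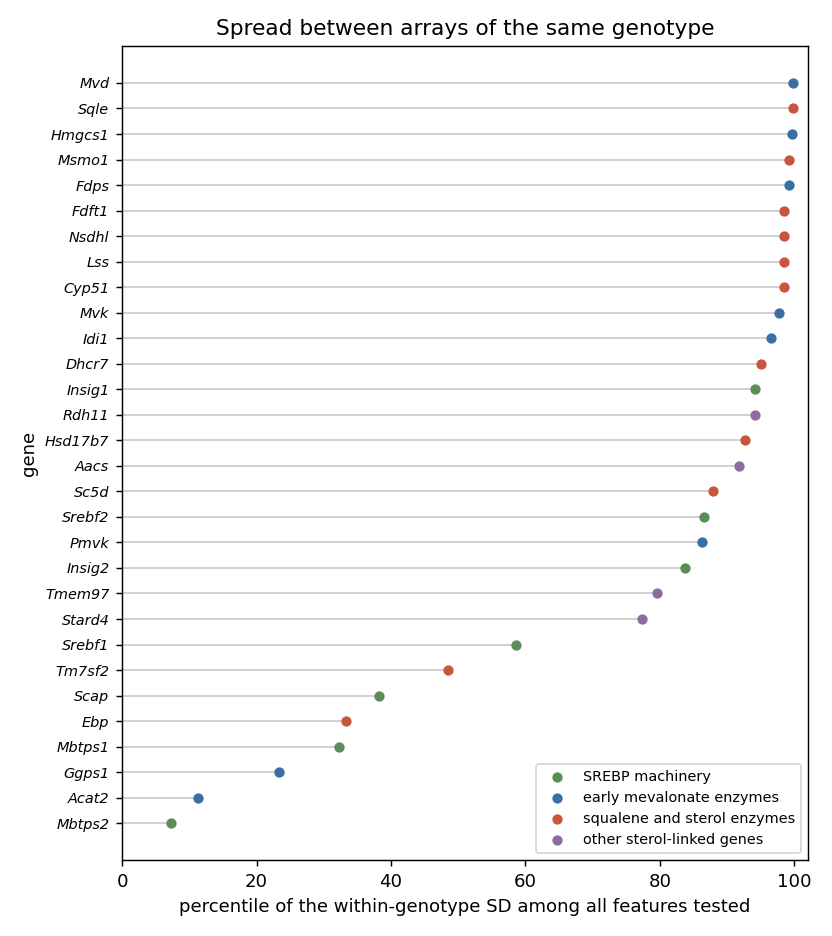
Percentile, among all features tested, of the pooled SD within genotypes for each of the 30 genes, ordered from high to low and coloured by role. Most enzymes lie at the right, above 85, and the 7 genes at the bottom lie below 50.

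Pairwise correlations over the 8 arrays describe the same likeness, with all genes sharing the same arrays and scaling. For Hmgcs1 the arrays fell into a set of 3 and a set of 5, each under 6 arrays, so r is given as a description with no test. Among the 15 enzymes with the shared order, r ran from 0.82 to 1.00 over 105 pairs with a median of 0.97. These 15 were picked by their low arrays in the same data, which by itself favours a high r. Over all 171 pairs of the 19 enzymes the median was 0.89 and the lowest -0.51. The median over all pairs was 0.96 among the NN arrays and 0.92 among the NB arrays. Each genotype holds arrays of both sets, and NB 2 is the only NB array of the set of 3. These medians are therefore not separate from that split. With Hmgcs1, r was at least 0.9 for 16 of the other 29 genes, and for 13 without the 2 farthest arrays (NB 2 and NN 4). It was -0.83 for Insig2 (Spearman rho -0.64), 0.93 for Srebf2, -0.05 for Srebf1 and -0.48 for Scap.

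Over the 8 arrays, 608 features (1.43% of 42512) had r of at least 0.9 with the mean of the 19 enzymes. These features include 19 of the 30 genes of the list. The enzymes are themselves part of that mean, which by itself favours a high r. The 10 genes outside the list that were most like it were Mmab (r = 0.987), Erg28 (0.986), Bax (0.986), Gm32487 (0.984), Clint1 (0.984), Smarcb1 (0.983), Tmem167 (0.983), Ldhal6b (0.981), Yipf2 (0.980) and Ttll12 (0.979). Mmab, an enzyme of vitamin B12 metabolism, neighbours Mvk on chromosome 5, and Erg28 encodes an endoplasmic reticulum protein that binds late sterol enzymes. On a log2 scale Mmab had 1.00, 0.86, 1.73 and 1.42 in NN and 0.98, 1.41, 1.23 and 1.65 in NB, a 1.83-fold range with the enzymes' low arrays, and Bax ranged over only 1.25-fold. None of these 10 genes was called between the genotypes (adjusted p 1.0 each, differences 0.01 to 0.11).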

How the data were processed

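Liver RNA of 4 NN and 4 NB samples was hybridised, labelled with Cy3, to 1-colour Agilent arrays. Per the file headers, the scans were read by version 11.5.1.1 of Agilent Feature Extraction (9.1 per the submitters' processing notes), and the deposited processed signal is a background-subtracted intensity that was not normalized between arrays. The deposited value table also holds intensities, with scale unstated; it ran in nearly the same order as the processed signal on every array (Spearman rho at least 0.998) and served as an alternative. Processed signals were divided by each array's 75th percentile and log2-transformed. Outlier spots were left out, probes had to be well above background on 4 of 8 arrays (46848 of 60273 probes), and the brightest probe stood for a gene. Accessions were named through RefSeq, which gave a symbol to 31060 probes. Of the features, 33 with under 2 values in a genotype were left out, leaving 42982. The difference NB minus NN came from limma (version 3.58.1, under R 4.3.3) without covariates, with Benjamini-Hochberg adjustment over all features and a threshold of 0.05; the script was checked on simulated data. The number of arrays limits the precision. The genes, the companion and marker lists and the tests were chosen with earlier results of these data known. The rule named every gene of the list, with values array by array for Hmgcs1, Idi1, Fdft1, Sqle, Lss, Cyp51, Msmo1, Nsdhl, Insig1, Insig2, Srebf1, Srebf2, Stard4, Scap and the 3 genes of lowest p on either side, the 10 genes most like the enzymes' mean, and the 2 smallest p of each companion list. The rule for printing promoters gave Hmgcs1 alone, and 4 others were added after the search. Alternatives were other scalings, filters, probe choices, array weights, slide blocks and leaving out each array.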

Additional observations from a re-analysis of the deposited data

Results flagged for a closer look

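Among 62 sets of 4 arrays (30 genes and the enzymes' mean in each genotype), 3 (4.84%) had an array set apart from the other 3 by more than 0.829 of the set's range; chance alone gives about 5%. All 3 concern NB 2. Its log2 signal of Srebf2 was -0.46, against 0.21 to 0.33 on the other NB arrays. Insig1 was at 2.19, against 3.03 to 3.09. For Insig2 it was at 5.09, against 4.29 to 4.42.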

How the results depend on the processing

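The sample numbers are not shared between the genotypes and pair no samples; the slide column, which held 1 array of each genotype, was run as a block instead, and it called none of the 30 genes. Over 607 alternative values of the 30 log2 differences (NB minus NN), none was called and 35 changed sign, in 14 genes. Apart from left-out arrays, the sign changed for Ggps1 to 0.056 with the authors' table and 0.052 with another probe, for Scap to 0.035 with quantile normalization and 0.036 with the authors' table, and with normexp for Mbtps2 (0.004) and Rdh11 (0.033); the cause was not tested. Leaving out each array in turn gave -0.195 to 0.133 for Pmvk, -0.024 to 0.551 for Idi1, -0.121 to 0.510 for Fdps, -0.042 to 0.485 for Fdft1, -0.052 to 0.512 for Lss, -0.143 to 0.238 for Hsd17b7, -0.032 to 0.282 for Sc5d, -0.083 to 0.057 for Scap, -0.023 to 0.091 for Mbtps1, -0.064 to 0.005 for Mbtps2, -0.005 to 0.355 for Insig1, -0.045 to 0.191 for Stard4 and -0.213 to 0.189 for Rdh11. It gave 12 to 21 genes higher in NB, a median of -0.033 to 0.283, and 0 to 1 gene without overlap (Insig2 without NB 2, as 4.19% of all features); with the slide column as a block 2 of 30 (Acat2 and Insig2) did not overlap, against 9.18% of all features. Features called numbered 3, with 2 to 5 over the alternatives (5 when each gene's probes were averaged). The median pairwise r of the enzymes stayed between 0.874 and 0.923. Ggps1, Mbtps1 and Mbtps2 were below the 75th percentile on all arrays.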

Other observations

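Genes around the pathway were examined in 5 companion lists, and no gene of any list was called between the genotypes at an adjusted p below 0.05 (0.00698% of all features were). Of 14 lipogenic genes that SREBP-1c is known to drive, 14 had a lower mean in NB, while 45.9% of all features had a higher one. Their median log2 difference (NB minus NN) was -0.29, against -0.0097 over all features. The 14 genes share the same 8 arrays and are not independent. Their summed level on a linear scale overlapped between genotypes (337 to 441 in NN, 214 to 461 in NB). With every scaling tried 14 of 14 were lower; without NB 3, the lowest array of both Me1 and Scd1, 12 of 14 were lower with a median of -0.179, without NN 6 13 of 14 with -0.162, and without NB 8 14 of 14 with -0.446. Unadjusted p was below 0.05 for 2 of them, Me1, malic enzyme (-0.55 ± 0.20, SE; p 0.0235, adjusted p 1.0 in limma), and Scd1, stearoyl-CoA desaturase (-0.69 ± 0.27, SE; p 0.0326, adjusted p 1.0 in limma), where 1.69% of all features were; the genotypes overlapped in both. That count was 4 with the slide column as a block, 0 without NN 6, 1 without NN 1, NB 5 or NN 7 and 6 without NB 8. Of all 42982 features, 728 had an unadjusted limma p below 0.05 in the main fit and 1228 with the column as a block. The number was 791 without NN 6, 798 without NN 1, 794 without NB 5, 1026 without NN 7 and 1193 without NB 8. Log2 signals of Scd1 were 6.77, 6.62, 6.87 and 6.68 on NN 1, 4, 6 and 7 and 6.26, 5.19, 6.07 and 6.68 on NB 2, 3, 5 and 8, so that NB 8 alone of the NB arrays reached the NN range. NN 1, NN 4 and NB 2 were the lowest arrays for 1 of the 14, Fasn (7.79% of all features). As a description over the 8 arrays, r to the cholesterol enzymes' mean ran from -0.08 (Elovl5) to 0.84 (Fasn) with a median of 0.36.

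The 10 genes of sterol sensing and degradation in the endoplasmic reticulum had a median difference of -0.02 between genotypes, but 7 of them, Erlin1, Syvn1 and Vcp among them, had the same 3 arrays lowest as the enzymes (7.79% of all features); the smallest unadjusted p were those of Erlin1 (0.08, p 0.370 in limma) and Erlin2 (-0.05, p 0.631 in limma). In side branches of the mevalonate route 3 of 10 genes had that order, with a median difference of 0.01; the smallest unadjusted p were those of Pdss2 (-0.10, p 0.272 in limma) and Coq2 (-0.07, p 0.396 in limma). Of 9 LXR targets and export genes none had it, the median was 0.02, and Abca1 (0.10, p 0.245 in limma) and Abcg8 (0.17, p 0.271 in limma) had the smallest unadjusted p. Of 7 genes of cholesterol conversion and esterification, 1 (Soat2) had these arrays lowest and 1 (Cyp27a1) highest; the median was -0.03, and Cyp8b1, a bile acid hydroxylase, had the smallest unadjusted p (-0.26 ± 0.11, SE; p 0.0404, adjusted p 1.0 in limma), followed by Soat1 (0.13, p 0.300 in limma).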
